A study of Homo sapiens with 24 samples.

Results

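The comparison described here set BT549 cells given siRNA against MYC (siMYC, 3 libraries) beside BT549 cells given a control siRNA (siCtl, 3 libraries), 6 of the 24 RNA sequencing libraries of the study. The members were chosen by their treatment label alone, so no measured value entered the choice. BT549 is an established human triple negative breast cancer line, and the labels give its genotype as WT in both groups. The MYC siRNA was a commercial pool, which mixes several siRNAs against a single mRNA, and the cells were taken after 72 h. For siCtl the labels give neither the sequence nor the time. Each group came from a single line and a single siRNA preparation, so a response to loss of MYC and a response to this pool cannot be told apart in these 6 libraries. The libraries are labelled as biological replicates, and the p-values measure the spread between them.

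Total RNA was depleted of ribosomal RNA before sequencing. The table held 15665 genes, and 14788 of them had a mean normalized read count over the 6 libraries of at least 10 and were tested. The libraries held 18.77 to 24.15 M reads. The identity of the line was checked on 14 markers, of which 11 were in the table. The mesenchymal genes VIM (21250 to 29320 in the 6 libraries) and CD44 (22260 to 32340) were abundant. The luminal gene GATA3 stood at 543.8 to 775.7, while ESR1, PGR and FOXA1 were not analysed here. Of 12 leukocyte markers 3 were tested, PTPRC, CD14 and CD68, and their summed level was 39.52 to 62.14 in siCtl and 75.12 to 94.55 in siMYC. The T and B cell markers CD3D, CD3E and MS4A1 were not analysed here, and the part of other cells in the results was not tested.

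MYC is a transcription factor that pairs with MAX and binds the E-box CACGTG near genes of ribosome production, nucleotide synthesis and cell growth. It is also known to hold down cell cycle inhibitors such as CDKN1A. Interferons are secreted antiviral proteins whose receptors act through JAK kinases and a complex of STAT factors with IRF9, which binds the interferon-stimulated response element (ISRE). The genes under that element encode sensors of foreign RNA, effectors that block viral replication, and the machinery that shows peptides to T cells. RNA sensors such as IFIH1 and the RNA-activated enzymes of the OAS family are themselves induced by interferon.

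Across the 14788 genes, 2386 (16.1%) passed limma's test at a Benjamini-Hochberg adjusted p under 0.05. Of these 1679 (11.4%) were higher and 707 (4.78%) lower in siMYC, so 70.37% of the calls were rises. This split moved with the scaling, to 59.28% with TMM rescaling, 55.67% with quantile normalization and 47.63% once trends with GC content and transcript length were removed from each library. The median of all genes was 0.05 on the log2 scale, and -0.05 after that removal. The groups did not overlap in 6464 genes (43.7%). Single libraries weighed heavily on the count of calls. It dropped to 570, 530 and 432 when siCtl 1, 2 or 3 was left out and to 520 when siMYC 3 was, and it reached 3983 in the absence of siMYC 1. A call is therefore described as held where the gene also passed, in the same direction, in each of the 6 fits that left out 1 library. This was so for 322 genes (2.18%), 283 higher (1.91%) and 39 lower (0.264%). Under TMM, quantile normalization, edgeR and removal of GC and length trends, 322, 322, 322 and 320 of these 322 genes were called in the same direction.

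The siMYC libraries differed among themselves. The first principal component held 64% of the variance and separated the groups, while siMYC 1 (28.5) and siMYC 2 (-39.4) lay at opposite ends of the second (18.5%). Transcripts of low GC content (up to 42.01%) had medians of 0.02, -0.47 and -0.30 in siMYC 1, 2 and 3 relative to the siCtl mean, and those of high GC content (from 56.55%) had medians of 0.09, 0.36 and 0.31. Among the 3542 genes of low GC content 136 were called higher and 271 lower, and among the 3542 of high GC content 628 were higher and 73 lower. Without siMYC 1 the falls at low GC content numbered 1197, and without siCtl 3 they numbered 9. GC content thus moved with the direction of the calls, and its part in them was not tested. Values with GC and length trends removed are given beside many of the results below.

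MYC mRNA (chromosome 8, 127735434 to 127742951, GRCh38) read 2313, 2269 and 2138 in siCtl 1 to 3 and 1655, 1789 and 1710 in siMYC 1 to 3. The groups did not overlap. On the log2 scale MYC differed by -0.38 (SE 0.11), which limma did not call (adjusted p = 0.0587). The adjusted p for MYC was 0.0175 by edgeR, 0.00119 by DESeq2 and 0.0127 by limma once GC and length trends were removed. Among 11 tested genes of the MYC network, limma called MYCL, a MYC relative, higher and none lower. Called lower were 2 by edgeR (MYC and MLXIP), and 3 by DESeq2 and with GC and length trends removed (MYC, MLXIP and MXD4). At an unadjusted limma p under 0.05, 2 were lower. MYCL read 51.38, 49.06 and 39.31 in siCtl and 92.12, 118.8 and 85.28 in siMYC, a rise of 1.06 (SE 0.18, limma adjusted p = 0.0161) with no overlap, although its adjusted p was 0.0551 without siCtl 2 and 0.0602 without siCtl 3. The partner MAX changed by 0.12 (SE 0.14) and its competitors MNT by 0.30 (SE 0.15), MXD1 by 0.03 (SE 0.12) and MGA by -0.57 (SE 0.25), none of which limma called.

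**Figure D1:**
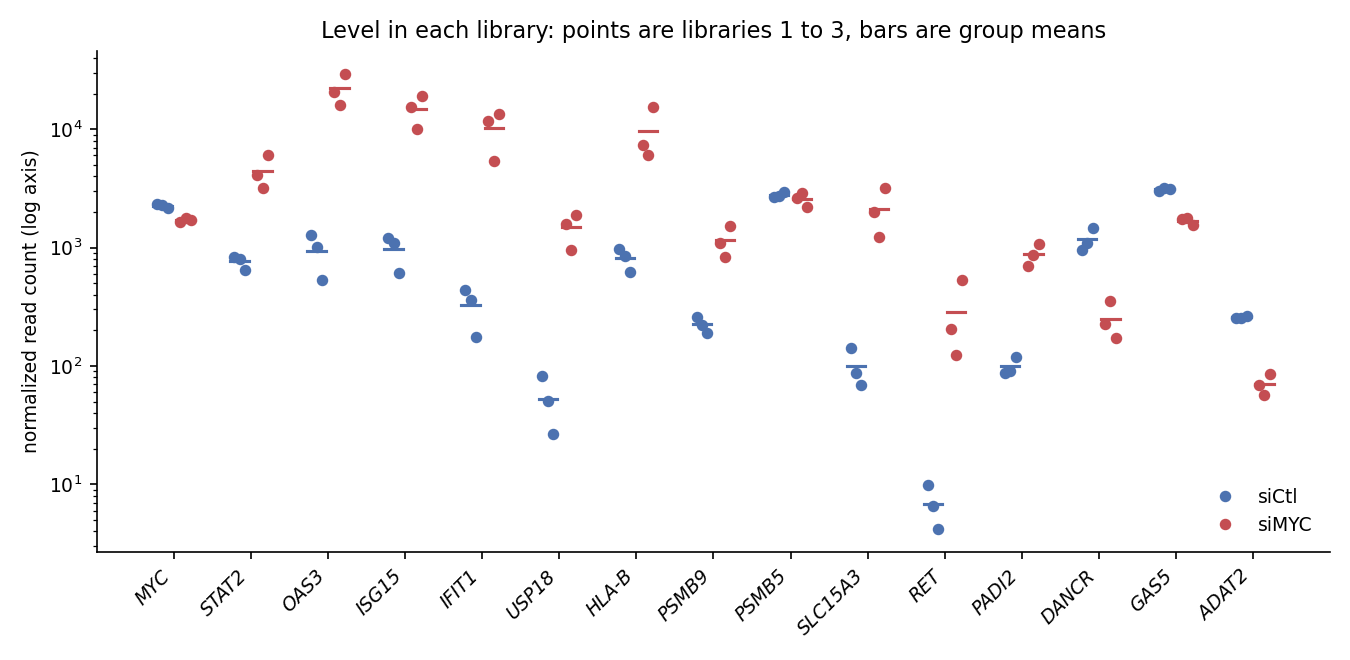
Normalized read counts (vertical log axis) of 15 genes in each library, with siCtl in blue, siMYC in red and short bars at the group means. MYC is lower in all 3 siMYC libraries (1655 to 1789 against 2138 to 2313), STAT2, OAS3, ISG15, IFIT1, USP18, HLA-B, PSMB9, SLC15A3, RET and PADI2 are higher without overlap, DANCR, GAS5 and ADAT2 are lower without overlap, and PSMB5 overlaps between the groups.

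Interferon-induced genes rose as a block. Of 195 tested genes that interferon is known to induce, 154 were called higher and 73 of the calls held, beside 11.4% and 1.91% of all genes. None was called lower, and 0 of the 195 were lower at an unadjusted limma p under 0.05, with edgeR or with DESeq2. The list median was 1.94, and it was 1.83 after removal of GC and length trends. Their summed level took 0.844% to 1.02% of the reads in siCtl and 2.47% to 4.49% in siMYC. The count of rises was 99, 93 and 79 with siCtl 1, 2 or 3 left out, 100 with siMYC 3 left out, and 146 and 162 with siMYC 1 or 2 left out. This list overlaps most of the lists by role that follow.

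Libraries differed in the size of this response. Relative to the siCtl mean, the median of the 154 called genes was 2.32 in siMYC 1, 1.69 in siMYC 2 and 2.99 in siMYC 3. It was 0.16, 0.06 and -0.22 in the 3 siCtl libraries, so siCtl 3 was the lowest and siMYC 3 the highest. MYC itself stood at -0.44, -0.32 and -0.39 in siMYC 1, 2 and 3. The library with the smallest interferon response, siMYC 2, also had the smallest difference in MYC, but the library with the largest response was not the one with the largest difference in MYC. With 3 libraries a group no correlation was computed.

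**Figure D2:**
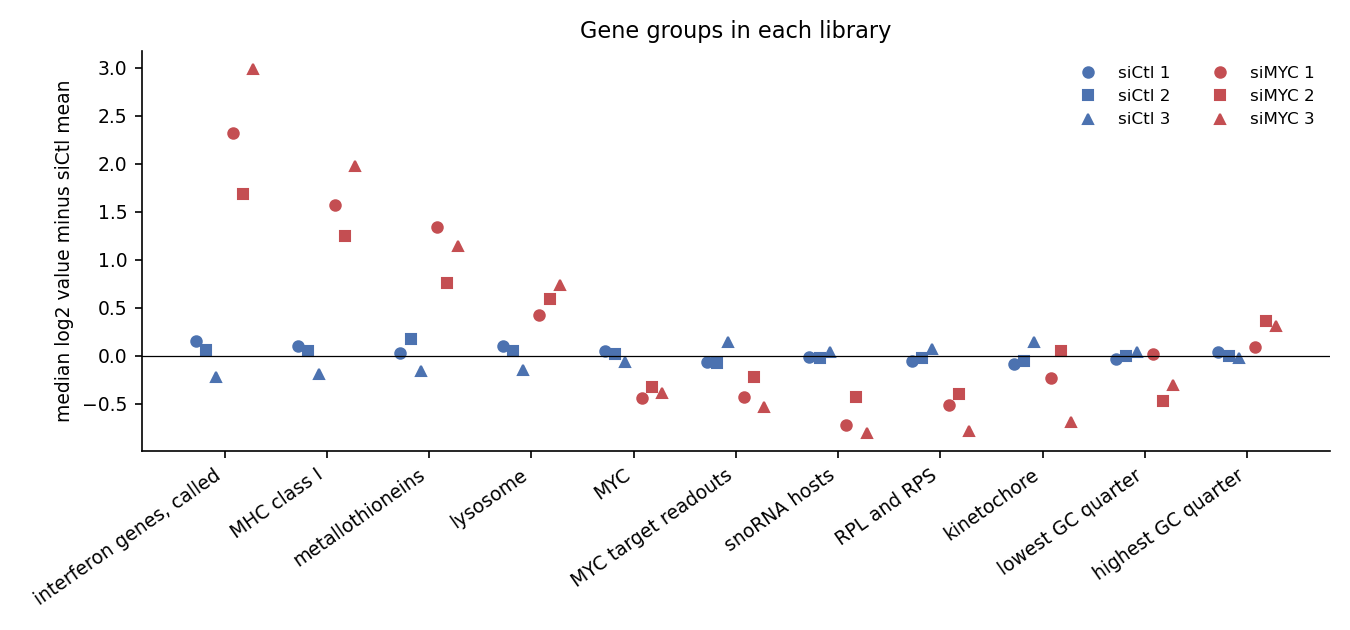
Median log2 value of each gene group relative to the siCtl mean (vertical axis) in every library, with marker shapes for replicates 1 to 3, siCtl in blue and siMYC in red. The called interferon genes range from 1.69 to 2.99 in siMYC, MYC lies between -0.44 and -0.32, and the genes of low and high GC content move apart in siMYC 2 and 3 but less in siMYC 1.

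The upstream end of the pathway gave little. Of 14 interferon ligand symbols looked for, IFNE alone was tested and the rest were not analysed here. IFNE, an epithelial type I interferon, read 82.99, 93.75 and 86.97 in siCtl and 71.32, 14.85 and 19.47 in siMYC. All siMYC values were lower, siMYC 1 by the least, and the change of -1.63 (SE 0.53) was not called (limma adjusted p = 0.0796), though it passed without siMYC 1 (0.00725) and with DESeq2 (0.0307). None of 8 receptor chains and JAK kinases was called by limma, edgeR or DESeq2, and 2 were higher at an unadjusted limma p under 0.05. The receptor chain IFNAR1 read 1296, 1336 and 1387 in siCtl and 1688, 1629 and 1543 in siMYC (0.27, SE 0.11, limma adjusted p = 0.125).

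The transcription factors of the pathway were higher. Among 6 STAT genes 5 were called higher and 2 held, beside 11.4% and 1.91% of all genes. STAT2 read 835.9, 803.4 and 651.5 in siCtl and 4073, 3159 and 6026 in siMYC, a rise of 2.49 (SE 0.25, limma adjusted p = 0.00664) with no overlap. The STAT calls numbered 2 without siCtl 1, siCtl 2 or siCtl 3, 3 without siMYC 3, and 3 with GC and length trends removed. Of 6 interferon regulatory factors 4 were called (2 without siCtl 2 or siCtl 3), and those of IRF7 and IRF1 held. IRF7, which switches on further interferon genes, rose by 2.82 (SE 0.21, limma adjusted p = 0.00551) and IRF1 by 1.46 (SE 0.18, 0.00989). IRF3, the constitutive factor that triggers interferon production, read 1609, 1545 and 1899 against 1985, 2442 and 2217 and was not called (0.40, SE 0.14, limma adjusted p = 0.0982).

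Sensors of RNA formed the next group, with 14 of 19 called higher and 10 held, beside 11.4% and 1.91% of all genes. Their median was 2.05. The 2′-5′ oligoadenylate synthetases, which answer double-stranded RNA with a nucleotide signal that starts RNA decay, led the group. OAS3 (chromosome 12) read 1279, 1017 and 528.5 in siCtl and 20760, 16160 and 29540 in siMYC, a rise of 4.60 (SE 0.37, limma adjusted p = 0.00551). OAS1 rose by 5.71 and OAS2 by 5.46. In OAS3 the lowest siMYC library lay far above the highest siCtl library.

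ZBP1, a sensor of left-handed double-stranded RNA, had 0 reads in all 3 siCtl libraries and 43, 14 and 156 in siMYC. Against a floor of 3 reads per library its mean level was at least 22.8-fold higher. IFIH1, which detects long double-stranded RNA, read 251, 250.7 and 149.7 in siCtl and 3138, 1038 and 3613 in siMYC (3.42, SE 0.49, limma adjusted p = 0.0124), so siMYC 2 was the lowest of its group. The regulator DHX58 rose by 3.13 (SE 0.30, limma adjusted p = 0.00588). ADAR, the enzyme that edits double-stranded RNA, rose by 1.25 (SE 0.12, 0.00652). The adaptor MAVS (0.31, SE 0.16, limma adjusted p = 0.196) and the kinase TBK1 (-0.23, SE 0.25, 0.54), through which the sensors signal, were not called, although the adjusted p of MAVS was 0.0463 at its lowest without 1 library. Among 5 DNA sensors 3 were called higher, beside 11.4% of all genes, and the call of SAMHD1 held. Without siCtl 1, siCtl 2, siCtl 3 or siMYC 3, 1 was called. SAMHD1, which destroys deoxynucleotides, rose by 2.54 (SE 0.16, limma adjusted p = 0.00551).

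**Figure D3:**
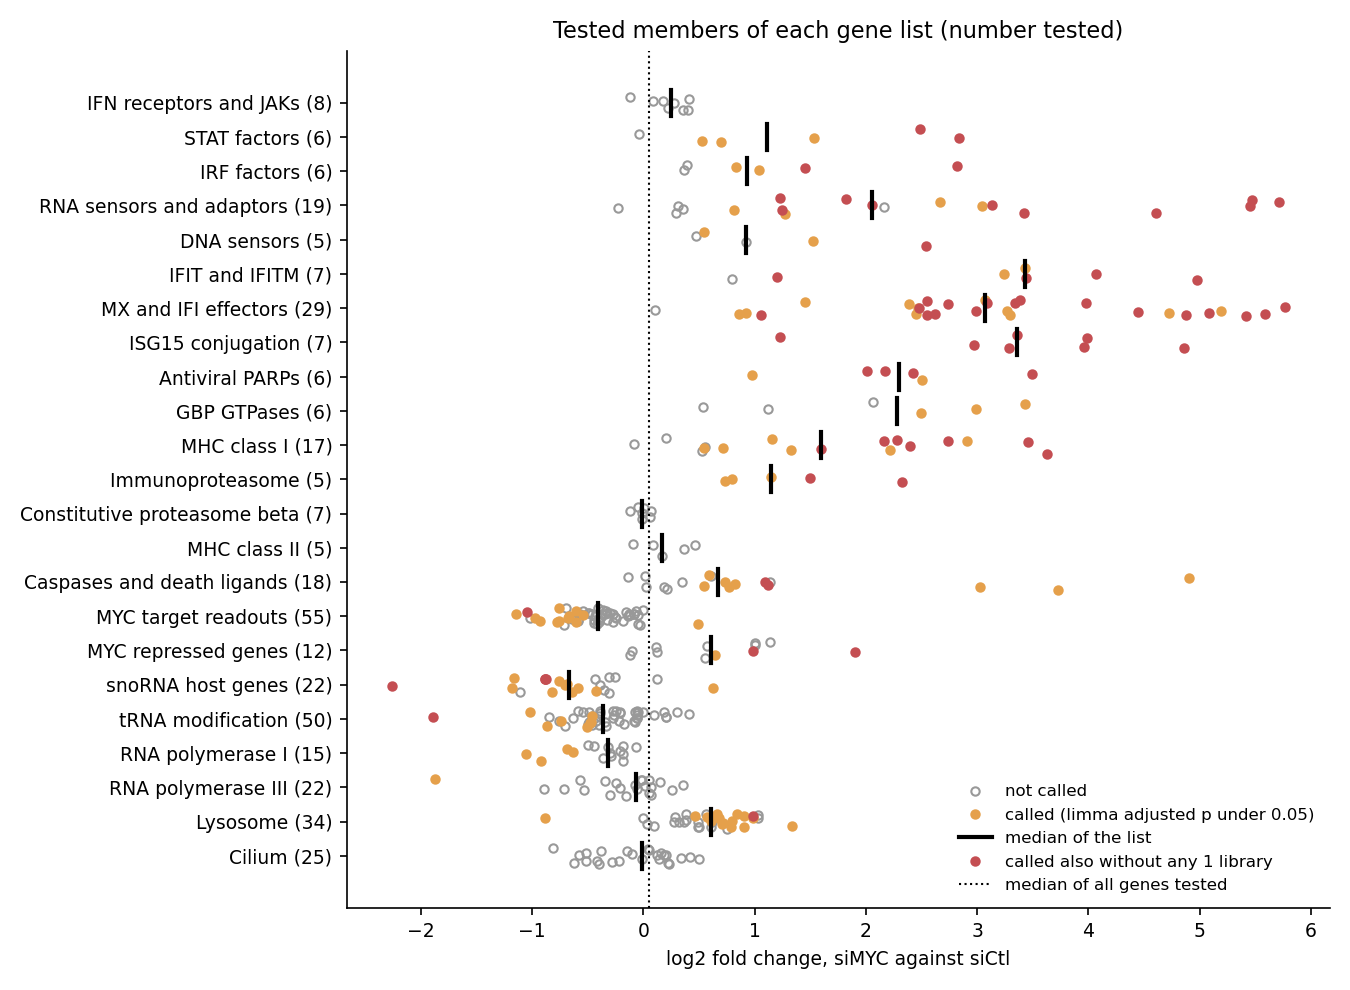
Log2 fold changes of siMYC against siCtl (horizontal axis) for the tested members of 23 gene lists (rows, number tested in brackets). Open points were not called, orange points passed limma's test, red points also passed without any 1 library, black bars are list medians and the dotted line is the median of all genes (0.05). The IFIT, MX, ISG15 and PARP lists lie to the right (medians 2.30 to 3.43), while snoRNA hosts (-0.66) and MYC target readouts (-0.41) lie to the left.

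Effector genes showed the largest changes. Of 29 MX and IFI type effectors 28 were called higher (18 without siCtl 3) and 17 held, beside 11.4% and 1.91% of all genes. Their median was 3.07. CMPK2, a mitochondrial nucleotide kinase, read 60.27, 73.04 and 30.94 in siCtl and 1963, 1236 and 2334 in siMYC (5.09, SE 0.37, limma adjusted p = 0.00551). RSAD2, which makes a chain-terminating nucleotide, rose by 4.88 (SE 0.66, 0.0107). MX1 rose by 5.41 and IFI27 by 5.59, and RTP4, with 2, 4 and 0 reads in siCtl and 131, 81 and 295 in siMYC, had a ratio of 81.7 (exact 95% interval for counting error alone, 37.3 to 224). Of 7 IFIT and IFITM genes 6 were called and 4 held. IFIT1, which binds viral RNA ends, read 440.7, 357.6 and 173.9 in siCtl and 11820, 5437 and 13320 in siMYC (4.97, SE 0.45, limma adjusted p = 0.00551). IFITM3, which blocks viral entry, rose less, by 1.20 (SE 0.16, limma adjusted p = 0.0104).

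The system that attaches the ubiquitin-like protein ISG15 to other proteins rose in all its 7 tested genes, and all 7 calls held. ISG15 itself read 1206, 1089 and 605.5 in siCtl and 15500, 10130 and 19020 in siMYC (3.96, SE 0.33, limma adjusted p = 0.00551). Each step was represented: the activating enzyme UBA7 rose by 3.29, the conjugating enzyme UBE2L6 by 3.36, the ligases HERC5 by 2.98 and HERC6 by 3.99, and USP18, which removes ISG15 and also brakes the receptor, by 4.86 (SE 0.43, limma adjusted p = 0.00551). Of 11 tested feedback genes, USP18 among them, 3 were called higher (11.4% of all genes were), 1 without siCtl 3, and 1 call held. The brake SOCS3 changed by 0.20 (SE 0.20, limma adjusted p = 0.50).

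Of 6 antiviral ADP-ribosyltransferase genes all were called higher and 4 held, beside 11.4% and 1.91% of all genes. They were led by PARP10 (3.50, SE 0.31, limma adjusted p = 0.00551) and PARP12 (2.42, SE 0.24, 0.00639). All 4 nuclear body genes of the SP and PML list were called and 3 held, among them SP110 (2.73, SE 0.29, limma adjusted p = 0.00699). Of 4 apolipoprotein L genes all were called (1 without siCtl 3), and APOL6 held (1.46, SE 0.17, limma adjusted p = 0.00855). Calls of the guanylate-binding GTPases (3 of 6), of the APOBEC3 deaminases (2 of 3) and of the checkpoint ligands (5 of 8) did not hold in any member. Each of these 3 counts was 0 without siCtl 3. Schlafen genes gave 0 calls of 3 with limma, edgeR and DESeq2 and 0 at an unadjusted limma p under 0.05.

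Antigen presentation split by class among the genes tested. Of 17 class I genes 13 were called higher (7 without siCtl 3) and 7 held, beside 11.4% and 1.91% of all genes. Their median was 1.60. HLA-B, which presents peptides to cytotoxic T cells, read 976.2, 841.6 and 626.4 in siCtl and 7363, 6015 and 15400 in siMYC (3.46, SE 0.36, limma adjusted p = 0.00724). The peptide transporter TAP1 rose by 2.74 (SE 0.29, 0.00699), the class I activator NLRC5 by 2.16 (SE 0.24, 0.00798) and the light chain B2M by 1.60 (SE 0.21, 0.0101). HLA genes are close relatives, so reads may be shared between them. Of 14 class II symbols looked for only 5 were tested, and the rest were not analysed here. Of these 5 genes 0 were called by limma, edgeR or DESeq2, and 1 was higher at an unadjusted limma p under 0.05. Their chaperone CD74 read 30.63, 31.61 and 37.63 in siCtl and 22.78, 31.45 and 41.72 in siMYC, and the class II activator CIITA changed by 0.47 (SE 0.14, limma adjusted p = 0.069).

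The proteasome split in the same way. All 5 immunoproteasome genes were called higher, beside 11.4% of all genes, and the calls of PSMB9 and PSMB8 held. PSMB8 read 710.4, 718.4 and 709.2 in siCtl and 2068, 1855 and 2117 in siMYC (limma adjusted p = 0.00551), and PSMB9 rose by 2.32 (SE 0.24, 0.00684). Of the 7 constitutive beta subunits 0 were called by limma, edgeR or DESeq2 and 0 passed at an unadjusted limma p under 0.05, with a median of -0.01 (-0.11 with GC and length trends removed). PSMB5, the subunit that PSMB8 replaces, read 2658, 2723 and 2962 against 2622, 2887 and 2200. The immunoproteasome count was 2 without siCtl 2, siCtl 3 or siMYC 3 and 3 without siCtl 1.

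Genes of cell death were mixed in size. Of 18 caspases, death ligands and related genes 10 were called higher, beside 11.4% of all genes, and 2 calls held. GSDMD, which forms pores in dying cells, had a held rise of 1.10 (SE 0.15, limma adjusted p = 0.0116). The count was 3 without siCtl 1, siCtl 2, siCtl 3 or siMYC 3. Of 14 complement genes 3 were called higher (0 without siCtl 1, siCtl 2 or siCtl 3) and none held.

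Sequences before the start of the raised genes were searched for the ISRE, written here as GAAA, any 2 bases and GAAA again, and read on both strands, in the RefSeq promoter windows of GRCh38.p14 (250 bases before to 50 after the start). The letters were present in 3.65% of 27305 promoters. Windows were matched for 55 of the 73 interferon genes with a held call, which is under the 80% needed to describe the group, and single genes are shown instead. The letters were present in 30 of these 55 windows and absent from the rest, and the genes shown were taken from the 30. These genes are shown because they place the element that the STAT and IRF9 complex binds beside genes whose level changed. Sequences are on the strand of the gene, with 1 match in capitals. Each of the 5 promoters that follow held 2 matches. A match is a description and not a measured binding site.
IFIT1 (chr10:89392495-89392554, plus strand): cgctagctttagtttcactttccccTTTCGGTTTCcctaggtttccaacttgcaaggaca
ISG15 (chr1:1013365-1013424, plus strand): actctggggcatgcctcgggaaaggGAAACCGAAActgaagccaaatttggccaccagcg
IFI27 (chr14:94110616-94110675, plus strand): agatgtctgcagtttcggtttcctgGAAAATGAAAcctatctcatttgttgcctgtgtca
BST2 (chr19:17405720-17405779, minus strand): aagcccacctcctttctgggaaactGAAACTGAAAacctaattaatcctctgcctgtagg
B2M (chr15:44711354-44711413, plus strand): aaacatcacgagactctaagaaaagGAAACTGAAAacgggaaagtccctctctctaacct

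Outside the interferon and immune lists, 207 held rises and 39 held falls were left among 14521 tested genes. The lists do not cover every interferon or immune gene, so an unlisted gene can still belong to either kind. The immune checkpoint gene VSIR and the cytokine subunit IL23A, for example, were unlisted. Among the genes with a rise was GCA, which lies head to head with a listed gene. IFIH1 and GCA, a calcium-binding protein of granules, are transcribed away from each other with 79 bases between them. The same 10 letters match the element in both windows, read on opposite strands. They are 1 of 3 matches in the promoter of IFIH1 and the only 1 in that of GCA.
IFIH1 (chr2:162318685-162318730, minus strand): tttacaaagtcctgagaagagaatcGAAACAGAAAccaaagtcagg
GCA (chr2:162318671-162318730, plus strand): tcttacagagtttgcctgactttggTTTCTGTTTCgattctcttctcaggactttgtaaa
GCA read 13.83, 10.9 and 9.199 in siCtl and 121.8, 45.42 and 138.1 in siMYC, a rise of 2.93 (SE 0.42, limma adjusted p = 0.0123), and siMYC 2 was the lowest siMYC library for both genes.

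Further unlisted rises lay near interferon genes, and the cause of this was not tested. Within 10 kb of the 73 interferon genes with a held call lay 47 tested genes outside the lists. Of these 19 (40.4%) were called higher, 12 (25.5%) of the calls held and none was called lower. Among all 14302 unlisted genes with a position, 10.5% were called higher and 1.43% held. The median of the 47 genes was 0.50, or 0.20 after removal of GC and length trends, against 0.04 and -0.06 for all unlisted genes. After that removal the 12 genes with a held rise still passed as higher, as did GRINA, COL9A3, AGRN and CETP. ZFAS1, INKA1, KAT2A, CDHR5, DDX27 and RPL27 then passed as lower. Of all 14521 tested unlisted genes 1128 were higher and 1424 lower in that fit. Between 10 and 50 kb, 15 of 78 genes (19.2%) were called higher and 2 held. The distance was chosen after values were seen, and the counts are a description. The strand of the reads is not given in the sources used here, so reads of overlapping or adjoining genes may be shared. Of the 47 genes 9 overlapped an interferon gene and 38 did not, and 9 of the 38 had held rises.

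Some of the largest unlisted rises sat in such places. SMTNL1, a smoothelin-like gene of muscle that lies 1390 bases from UBE2L6 on the opposite strand, had 2, 1 and 1 reads in siCtl and 49, 40 and 124 in siMYC, a ratio of 51.5 (exact 95% interval for counting error alone, 19.8 to 191). LINC02574, a long non-coding RNA 3342 bases from IFI6 on the same strand, read 5.928, 4.361 and 2.509 in siCtl and 102, 95.21 and 126.1 in siMYC. CCDC194, 8743 bases from BST2 on the same strand, had 2, 1 and 1 reads in siCtl and 40, 37 and 119 in siMYC. BISPR, a non-coding RNA that starts 56 bases from BST2 on the opposite strand, rose by 2.67 (SE 0.35, limma adjusted p = 0.0102). TLDC2, which overlaps SAMHD1, rose by 2.28 (SE 0.28, 0.00969), and IL23A, a cytokine subunit 1187 bases from STAT2, by 2.35 (SE 0.26, 0.00806). Nearness alone did not go with a rise everywhere: PHRF1, 333 bases from IRF7, changed by 0.10 and KAT2A, 397 bases from DHX58, by -0.24, neither of them called, although KAT2A passed as lower with GC and length trends removed (0.0279).

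**Figure D4:**
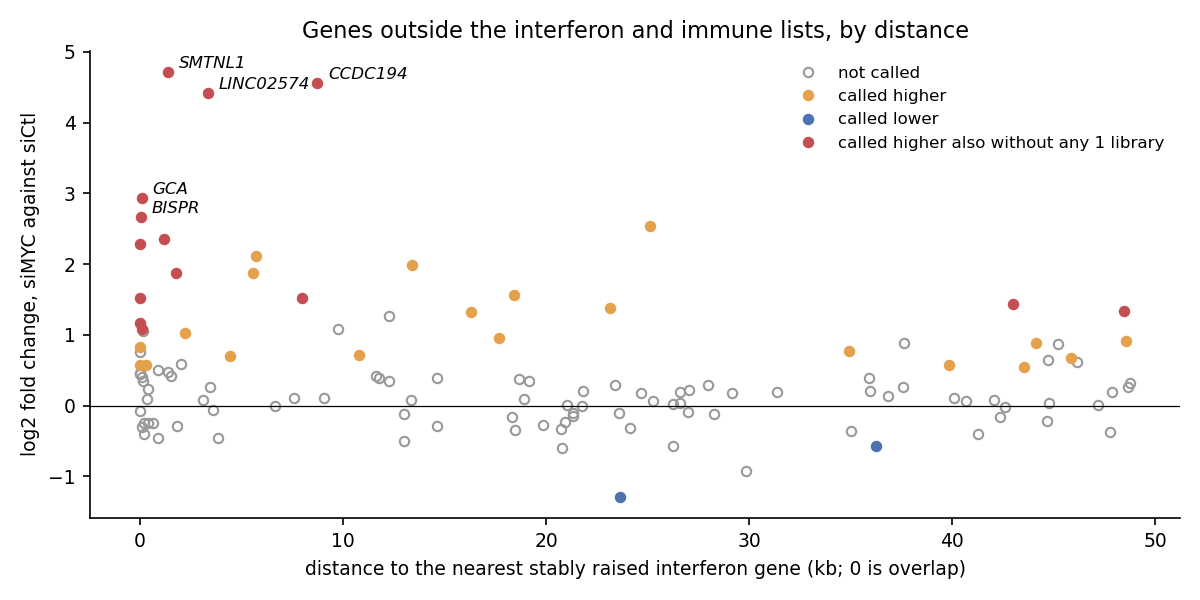
Log2 fold change of genes outside the interferon and immune lists (vertical axis) by their distance in kb from the nearest interferon gene with a held rise (horizontal axis, 0 for overlap). Within 10 kb 19 of 47 genes were called higher, with SMTNL1, LINC02574 and CCDC194 above 4, and from 10 to 50 kb 15 of 78.

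Split by level, taken as the mean over all 6 libraries with siMYC included, the unlisted genes were called higher in similar shares. A gene with a large rise is thus placed in part by its siMYC level, and the classes do not give the siCtl level. ATP10A, SMTNL1 and CCDC194, with 0 to 2 reads in each siCtl library, reached the mean of 10 only through siMYC. These were 10.95% of genes with a mean of 10 to 100, 10.4% from 100 to 1000, 9.90% from 1000 to 10000 and 11% from 10000. Called lower were 4.04%, 5.30%, 4.72% and 10%. Held calls thinned out with level for falls: there were 14 of 3616, 21 of 6210, 4 of 4495 and 0 of 200. Held rises numbered 70, 92, 42 and 3. The median size of the called changes, either way, shrank from 1.22 in the lowest class to 0.78, 0.69 and 0.61 in the others.

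**Figure D5:**
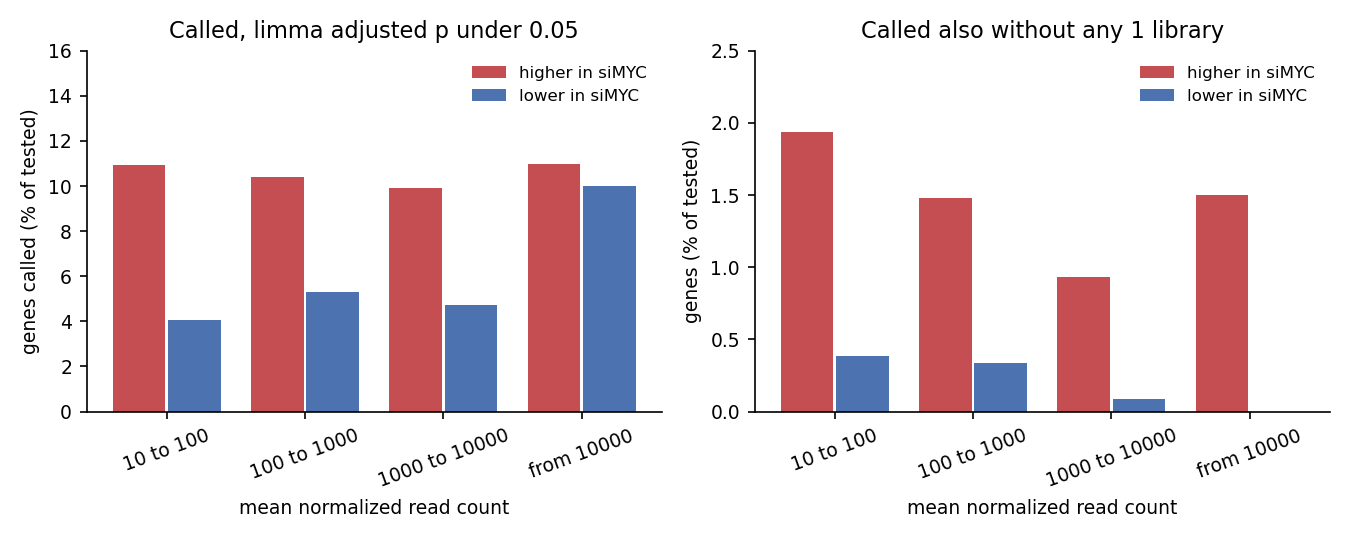
Percent of tested genes outside the interferon and immune lists called higher (red) and lower (blue) in siMYC, by class of mean normalized read count over all 6 libraries. All calls are on the left, and calls that also passed without any 1 library are on the right. Rises take 9.90% to 11% of each class, and held falls are absent from the class above 10000.

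In the class with a mean of 10 to 100, besides SMTNL1, CCDC194 and LINC02574, the leading rises were those of ATP10A and ABCA4. ATP10A, a flippase of membrane phospholipids, had 0 reads in siCtl and 48, 13 and 101 in siMYC, at least 17.5-fold higher than a floor of 3 reads per library. ABCA4, a transporter of retinoids, read 9.88, 10.9 and 3.345 in siCtl and 97.07, 89.97 and 97.34 in siMYC (3.54, SE 0.37, limma adjusted p = 0.00731), with little spread among the siMYC libraries.

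The falls of this class were smaller. SGPP2, a sphingosine 1-phosphate phosphatase, fell from 28.65, 28.34 and 41.81 to 11.89, 8.735 and 7.416 (-1.71, SE 0.22, limma adjusted p = 0.0101). The mitochondrial gene CHCHD10 changed by -1.69 (SE 0.25, limma adjusted p = 0.0128), the zinc finger gene ZNF556 by -1.56 (SE 0.16, 0.00664) and the growth factor receptor FGFR4 by -1.41 (SE 0.20, 0.0114). SNORA74D, a small nucleolar RNA, changed by -1.41 (SE 0.17, limma adjusted p = 0.00946), with the limit that RNAs so short are poorly captured by libraries of long RNA.

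Between 100 and 1000, the receptor tyrosine kinase RET rose most, although its siCtl values lay far below that class. RET read 9.88, 6.541 and 4.181 in siCtl and 205, 123.2 and 535.8 in siMYC (4.99, SE 0.54, limma adjusted p = 0.00798), and siMYC 3 was the highest library. IL4I1, a secreted amino acid oxidase, read 123.5, 135.2 and 85.3 against 1156, 977.4 and 2926 (3.71, SE 0.42, 0.00849). PADI2, which turns arginine in proteins into citrulline, read 86.95, 90.48 and 119.6 against 696.3, 872.6 and 1079 (3.13, SE 0.21, limma adjusted p = 0.00551). In PADI2 siCtl 3 was the highest control, while in OAS3, ISG15 and IFIT1 it was the lowest. The adaptor SHC2 rose by 2.81 (SE 0.41, limma adjusted p = 0.0125) and VSIR, the immune checkpoint protein VISTA, by 2.69 (SE 0.24, 0.00551).

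The falls of this class began with DANCR, a long non-coding RNA that hosts a small nucleolar RNA. DANCR read 946.5, 1089 and 1477 in siCtl and 227.8, 352.9 and 170.6 in siMYC (-2.26, SE 0.29, limma adjusted p = 0.0102). ADAT2, a subunit of the deaminase that makes inosine in transfer RNA, read 255.9, 252.9 and 265.9 against 68.34, 56.78 and 85.28. The non-coding LINC01963 changed by -1.83 (SE 0.23, limma adjusted p = 0.0101) and the anion channel subunit LRRC8B by -1.75 (SE 0.24, 0.0118). In all 4 genes each siMYC library lay below each siCtl library.

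From 1000 to 10000, SLC15A3, a peptide transporter of lysosomes, read 142.3, 87.21 and 69.41 in siCtl and 1978, 1232 and 3194 in siMYC (4.37, SE 0.40, limma adjusted p = 0.00551). TRANK1, a large ankyrin repeat protein, read 178.8, 131.9 and 79.45 against 2207, 1184 and 3695 (4.10, SE 0.46, 0.00841). In both, siCtl 3 was the lowest library and siMYC 3 the highest, as in the median of the called interferon genes. The carboxypeptidase CPA4 rose by 2.54 (SE 0.33, limma adjusted p = 0.0101). TIMP3, an inhibitor of metalloproteinases, rose by 1.72 (SE 0.16, limma adjusted p = 0.00556).

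There were 4 held falls in that class. WDR3, a factor of small ribosomal subunit assembly, read 1476, 1375 and 1742 in siCtl and 751.8, 667.3 and 571 in siMYC (-1.21, SE 0.16, limma adjusted p = 0.0102). ALDH1B1, a mitochondrial aldehyde dehydrogenase, changed by -1.04 (SE 0.12, 0.0091), and SCARB1, the HDL receptor, by -0.89 (SE 0.12, limma adjusted p = 0.0107). GAS5, a host of small nucleolar RNAs, was the fourth. Above 10000 the held rises were those of TNS3, an adhesion protein (0.99, SE 0.13, limma adjusted p = 0.0107), NQO1, a quinone reductase (0.95, SE 0.11, 0.00846), and PLK2, a polo-like kinase (0.83, SE 0.11, 0.0102). NQO1 read 10040, 9753 and 9340 in siCtl and 18430, 18540 and 19140 in siMYC, with little spread within either group.

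The readouts of MYC activity moved in small steps. Of 55 tested genes used as such readouts 12 were called lower and 1 higher, beside 4.78% and 11.4% of all genes, with a median of -0.41. PRMT3, an arginine methyltransferase of ribosomal protein S2, was the member whose call held. PRMT3 read 422.9, 482.9 and 531 in siCtl and 225.8, 250.7 and 218.8 in siMYC (-1.04, SE 0.14, limma adjusted p = 0.0101). With GC and length trends removed its change was -0.65 and its adjusted p 0.107. With those trends removed 34 of the 55 were lower and the median was -0.62, edgeR called 27 lower, and limma called 3, 3 and 1 without siCtl 1, 2 or 3 and 3 without siMYC 3. The rise among them was that of the hexokinase HK2 (0.49, SE 0.13, limma adjusted p = 0.0458, 0.118 with trends removed). The E-box CACGTG was present in the promoter windows of 19 of 45 matched readouts (42.2%), beside 7.43% of all 27305 promoters. The readouts were listed for their known link to MYC, so this share describes the list and not the response in these libraries. A transcription factor known as a MYC target, TFAP4, fell from 419.9, 432.8 and 442.4 to 211, 248.9 and 221.6 (-0.93, SE 0.12, limma adjusted p = 0.0101), and MIR17HG, the host of a microRNA cluster that MYC activates, changed by -1.50 (SE 0.16, 0.00766).

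Genes that MYC is known to repress were called higher in 3 of 12 cases and lower in none, beside 11.4% and 4.78% of all genes, with a median of 0.60. At an unadjusted limma p under 0.05 none was lower and 7 were higher. CDKN1A, the cell cycle inhibitor p21, read 361.6, 333.6 and 189 in siCtl and 996.4, 870.9 and 1375 in siMYC (1.90, SE 0.29, limma adjusted p = 0.014). GADD45A, a gene of growth arrest, rose by 0.99 (SE 0.13, 0.0101). Both calls held.

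The hosts of small nucleolar RNAs had the largest share of calls among the lower lists. These genes carry the snoRNAs that guide modification of ribosomal RNA in their introns, and their spliced RNA is mostly degraded on ribosomes. Of 22 tested hosts 13 were called lower and 1 higher, beside 4.78% and 11.4% of all genes. Their median was -0.66 (-0.74 after removal of GC and length trends, with 17 lower). The calls of DANCR, GAS5, SNHG15 and SNHG25 held. Without siCtl 1, 2 or 3 the falls numbered 5, 4 and 4, and without siMYC 3 they numbered 6. GAS5 read 3011, 3213 and 3100 in siCtl and 1747, 1773 and 1555 in siMYC (-0.88, SE 0.12, limma adjusted p = 0.0102), with no overlap. SNHG15 read 620.5, 597.4 and 608.8 against 316, 359 and 319.8 (-0.88, SE 0.11, 0.0101). SNHG25 read 67.19, 67.59 and 68.58 against 36.65, 38.43 and 34.3 (-0.88, SE 0.11, limma adjusted p = 0.00993). CYTOR was the host called higher (0.63, SE 0.14, limma adjusted p = 0.0314, and 0.108 without siCtl 3). The E-box letters were present in the windows of 1 of 18 matched hosts (5.56%).

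Of 50 enzymes that modify transfer RNA 8 were called lower and none higher, beside 4.78% and 11.4% of all genes, with a median of -0.37, and the call of ADAT2 held (-1.88, SE 0.17, limma adjusted p = 0.00551). That count was 1 without any of siCtl 1, siCtl 2, siCtl 3 and siMYC 3, 16 without siMYC 1, 15 by edgeR and 17 with GC and length trends removed. Of 15 subunits and factors of RNA polymerase I 4 were called lower (0 without any of siCtl 1, siCtl 2, siCtl 3 and siMYC 3), with a median of -0.32, and with GC and length trends removed 6 were, with a median of -0.48. Of 22 of RNA polymerase III 1 was called lower, near the 4.78% of all genes, with a median of -0.07. The count was 0 without siCtl 3, 4 by edgeR, 6 by DESeq2 and 4 with GC and length trends removed, where the median was -0.29. That gene was POLR3G, the subunit of proliferating cells, which read 300.4, 329.2 and 425.7 in siCtl and 140.7, 89.97 and 66.74 in siMYC (-1.87, SE 0.28, limma adjusted p = 0.014, 0.0535 without siCtl 3). Of 20 cytosolic aminoacyl-tRNA synthetases 4 were called lower (0 without any of siCtl 1, siCtl 2, siCtl 3 and siMYC 3, and 2 without siMYC 2). WARS1, a synthetase that interferon also induces, went the other way, with 4106, 4410 and 2537 in siCtl and 13070, 5913 and 21720 in siMYC (1.73, SE 0.47, limma adjusted p = 0.0526, and 0.0251 without siMYC 2).

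Of 34 lysosomal genes 15 were called higher and 1 lower, beside 11.4% and 4.78% of all genes, with a median of 0.61 that was 0.35 after removal of GC and length trends. Of the rises 1 held, and the count of rises was 3, 3 and 1 without siCtl 1, 2 or 3 and 1 without siMYC 3. Called lower were 4 of 31 centromere and kinetochore genes, 4 of 29 nucleoporins, 2 of 24 mitochondrial import genes and 3 of 24 Fanconi and homologous recombination genes, each beside 4.78% of all genes. Each of these 4 counts was 0 without siCtl 1, siCtl 3 or siMYC 3, and without siMYC 1 they were 11, 6, 1 and 9. With GC and length trends removed they were 6, 3, 6 and 5. The median of the centromere list was -0.23, 0.05 and -0.69 in siMYC 1, 2 and 3, so siMYC 2 did not share its direction. Of 25 ciliary genes 0 were called by limma, with 2 higher and 2 lower at an unadjusted p under 0.05, 1 lower by edgeR, 2 lower by DESeq2 and 2 lower with GC and length trends removed.

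The genes that act on the siRNA itself were examined as well. Of 13 genes of small RNA silencing 2 were called lower and none higher, beside 4.78% and 11.4% of all genes, a difference of few genes. TNRC6B, a scaffold of the silencing complex, read 2764, 2780 and 3068 in siCtl and 1683, 1420 and 1605 in siMYC (-0.87, SE 0.12, limma adjusted p = 0.0121, 0.0513 without siCtl 3). AGO1, an Argonaute protein, changed by -0.50 (SE 0.13, limma adjusted p = 0.043). Its adjusted p was 0.137 without siCtl 2 and 0.0997 with GC and length trends removed. AGO2, the Argonaute that cuts the target, read 8812, 8247 and 8577 against 7510, 10150 and 8733 and was not called (0.03, SE 0.14, 0.89).

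A scan of symbol stems gave 282 families with at least 8 tested genes. Over all genes 11.4% were called higher. By share called higher the leading families were IFI (8 of 9), HLA (6 of 9), MT (6 of 9), CASP (6 of 10), IRF (5 of 9) and PARP (6 of 11). Without siCtl 3 these counts were 5, 4, 5, 1, 2 and 3. The metallothioneins (MT) are small proteins that bind zinc and copper. MT2A read 4795, 5539 and 5256 in siCtl and 13310, 13300 and 15600 in siMYC (1.43, SE 0.13, limma adjusted p = 0.00551). MT1F rose by 1.33 (SE 0.16, 0.00946) and the pseudogene MT1L by 1.52 (SE 0.19, limma adjusted p = 0.00995). Metallothioneins are near copies of each other, so their separate levels are uncertain, and without siMYC 3 the family had 3 calls.

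Over all genes 4.78% were called lower. By share called lower the leading families were SNHG (11 of 20), RPL (30 of 55), RPS (21 of 43), NDUFAF (3 of 8), RRP (3 of 9) and PRMT (2 of 8). These are the extremes of the scan, and small families reach them with few genes. The RPS stem also takes in genes other than ribosomal proteins, and 2 of its 43 genes were called higher. Of 87 genes of both stems with ribosomal protein symbols, 52 were called lower and 1 higher. Pseudogenes such as RPL13P5 and RPS2P32 and relatives such as RPL7L1 and RPS27L are among them, so reads may be shared. Every gene of the RPL stem had a negative change, 55 of 55, with a median of -0.55. The 87 genes together had medians of -0.51, -0.40 and -0.79 in siMYC 1, 2 and 3. Yet no RPL or RPS call held, and the RPL count was 0 without any of siCtl 1, siCtl 2, siCtl 3 and siMYC 3, 32 without siMYC 1 and 30 without siMYC 2. By edgeR 42 and by DESeq2 43 of the 55 were lower. The RPS count was 0 without the same libraries. For NDUFAF, assembly factors of respiratory complex I, the count was 3 without siMYC 1 and 0 without any other library, and the median was -0.40. The RRP family of ribosomal RNA processing had a median of -0.24 (-0.57 with GC and length trends removed, with 6 called lower) and 0 calls without siCtl 1, siCtl 2, siCtl 3 or siMYC 3. The SNHG count was 3, 2 and 2 without siCtl 1, 2 or 3 and 4 without siMYC 3, and in the PRMT family the call of PRMT3 held.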

How the data were processed

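RNA of 3 siMYC and 3 siCtl libraries was analysed, grouped by their treatment labels. The deposited signal was a table per library of read counts per gene divided by a library factor, credited to DESeq2 per the submitters' processing notes, which also name bcl2fastq, SAMtools, featureCounts and the build GRCh38. Aligner, annotation, versions and strandedness are not given in the sources used here. Repeated symbols (21) were summed. Dividing by the value of 1 read gave whole reads for 100% of values (tolerance 0.0001). That value lies close to 1 in siMYC 1 (0.9905) and in siCtl 1 (0.988), so the reads of both are less sure.

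The test was limma 3.58.1 (R 4.3.3) on log2(value + 1). It covered the 14788 genes whose mean over the 6 libraries was 10 or more, with two-sided p-values adjusted by Benjamini-Hochberg and called below 0.05. A fold change on this scale understates that of low genes. The code was tested on simulated data. Alternatives were pseudocounts of 0.5 and 5, no filter, a mean of at least 50, TMM rescaling, quantile normalization, trended and robust variance, edgeR 4.0.16 and DESeq2 1.42.0 on recovered reads, a replicate block, leaving out each library and, chosen after seeing the data, removal of GC content and length trends (splines with 4 degrees of freedom). No test was made of a list.

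The comparison, the 42 gene lists and the rules were chosen with earlier results of these data known. Named are MYC and its partners, in each list up to 5 held calls of largest change, outside the 25 interferon and immune lists the 5 held rises and 5 held falls of largest change in each level class, and the 6 families of largest share in each direction. Some genes that these rules select are not reported here. Other genes named, all genes near interferon genes among them, were chosen after their values were seen. Positions and promoter sequences are from RefSeq (GRCh38.p14), matched by symbol for 15410 of 15665 genes.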

Additional observations from a re-analysis of the deposited data

How the results depend on the processing

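MYC was called lower by DESeq2 (-0.45, adjusted p = 0.00119), by edgeR (-0.45, 0.0175), and by limma with TMM rescaling (-0.45, 0.0333), with trended and robust variance (-0.38, 0.0321), with a mean of at least 50 (-0.38, 0.0413) and with GC and length trends removed (-0.66, 0.0127). Leaving out 1 library gave adjusted p of 0.0614 to 0.191. The 2386 calls became 3782 with DESeq2 and 432 to 3983 without 1 library, and the 1679 rises 383 to 2144. The 707 falls became 1762 with DESeq2, 1219 with edgeR, 1425 with GC and length trends removed, 1090 with quantile normalization, 1063 with trended and robust variance and 49 to 1839 without 1 library. The share of rises among calls was 53.41% with DESeq2 and 58.28% with edgeR. Libraries that share a replicate number did not deviate together (r of -0.02, -0.268 and -0.346), so the numbers were not taken as pairs. A fit with the replicate number as a block gave 470 calls, 403 higher and 67 lower, and 280 of the 322 held calls. The cause of these shifts was not tested, other than that a fit without 1 library or with a block has fewer degrees of freedom. No called gene listed by name or held changed sign under any alternative run, but with GC and length trends removed falls outnumbered rises (1425 against 1296) and the median of all genes went from 0.05 to -0.05. With 3 against 3 libraries an exact permutation test of a single gene cannot go below 0.1.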

Other observations

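Families and genes in this section were picked after their values were seen, and their values are given as description. Of 9 tested genes with bone morphogenetic protein (BMP) symbols, BMP1 among them, 3 were called higher and none lower. Over all genes these shares were 11.4% and 4.78%, a difference of few genes. These 9 genes had 4 negative changes and a median of 0.34 that was 0.04 with GC and length trends removed. The calls of BMP4 and BMP2 held. BMP4, a morphogen, read 1371, 1377 and 1532 in siCtl and 3156, 4428 and 3548 in siMYC, and its relative BMP2 read 51.38, 38.15 and 41.81 against 99.05, 116.2 and 141.8. The BMP antagonist FST averaged 351.7 (SD 117, n = 3) in siCtl and 1514 (SD 390, n = 3) in siMYC. DKK1, an inhibitor of WNT signalling, read 1405, 1463 and 1369 against 3784, 4146 and 4196. The receptors TGFBR2 (1.27), NTRK3 (1.25), ERBB3 (1.15) and OXTR (1.31) were higher too. CCND1, the cyclin that drives entry into S phase, was higher, at 785.5, 702 and 937.5 in siCtl and 1622, 2096 and 1955 in siMYC, beside the rise of the inhibitor CDKN1A.

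Among 36 interleukins and their receptors 13 were called higher and 3 lower, beside 11.4% and 4.78% of all genes. Their median was 0.41, and it was 0.26 after removal of GC and length trends. Rises numbered 5, 5 and 4 without siCtl 1, 2 or 3 and 4 without siMYC 3. IL34, a ligand of the CSF1 receptor, averaged 29.76 (SD 7.68, n = 3) in siCtl and 127 (SD 43, n = 3) in siMYC, IL22RA1 read 15.81, 8.721 and 12.54 against 132.7, 55.03 and 178, and IL7R rose by 1.38 (SE 0.18, limma adjusted p = 0.0101).

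The 12 tested bitter taste receptor genes all had negative changes, with a median of -0.98 (-0.66 after removal of GC and length trends). Their median was -0.06 in siMYC 1, -1.58 in siMYC 2 and -1.34 in siMYC 3. Their median GC content was 38.6%. Called lower were 2 of 12, beside 4.78% of all genes, a difference of few genes. The count was 9 without siMYC 1 and 0 without siCtl 1 or siMYC 3.

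Of 61 tested histone genes of the clusters 53 had negative changes, with a median of -0.51. Limma called 2 lower and 3 higher, beside 4.78% and 11.4% of all genes. By edgeR 18 were lower and 3 higher, and by DESeq2 30 were lower and 3 higher. A member, H2BC6, read 18.77, 21.8 and 21.74 in siCtl and 44.57, 52.41 and 45.42 in siMYC, a held rise, as did H2AW outside the clusters, at 964.3, 750 and 976.8 against 2607, 2613 and 2280. Histone genes are near copies of each other, so reads may be shared. The library medians of the 61 genes were -0.41, -0.17 and -0.93 in siMYC 1, 2 and 3. Small nucleolar RNAs listed as genes were called lower in 9 of 52 cases and higher in none, beside 4.78% and 11.4% of all genes. Their median was -0.47. After removal of GC and length trends 3 were lower and 1 higher, with a median of -0.23. Without siCtl 1, siCtl 2, siCtl 3 or siMYC 3, 1 was called.

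Single genes among the 39 held falls are given next. GLDC, the glycine decarboxylase of mitochondria, read 649.1, 542.9 and 792.8 in siCtl and 224.8, 300.5 and 251.2 in siMYC. The nucleoside transporter SLC29A1 averaged 1059 (SD 112, n = 3) against 483.4 (SD 73.3, n = 3), and RBP4, the retinol carrier, 420.1 (SD 21.2, n = 3) against 172.9 (SD 28.7, n = 3).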
